A study of Mus musculus with 6 samples.

Results

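The genes described here are the Wnt ligands, their Frizzled receptors and LRP co-receptors, the secreted modulators of the pathway, and a few intracellular members, measured in mouse fetal testes (E13.5) with and without Dmrt1. Members were chosen by gene symbol alone. They are the genes named Wnt, Fzd, Sfrp, Dkk and Rspo with a number, together with Lrp5, Lrp6, Axin1, Axin2, Lef1, Tcf7, Ctnnb1, Porcn, Wif1 and Kremen1, measured by a probe set that the array's annotation gives 1 symbol. Wnt4, Rspo1 and Wnt9b were left out by the rule. The rule found 48 genes among the 18194 genes that the probe sets with 1 symbol measure, and no probe set carried the symbol Tcf7 alone. The 48 include Fzd10os, a transcript from the strand opposite Fzd10, whose symbol matches the rule although it encodes no receptor. Each gene is represented by the probe set with the highest mean log2 intensity over the 6 arrays.

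Wnt proteins are secreted, lipid-modified ligands that are acylated by Porcupine before they leave the cell and bind Frizzled receptors on the receiving cell. With an LRP co-receptor the signal stops the Axin scaffold from directing beta-catenin to degradation, and beta-catenin then acts with LEF and TCF factors on target genes, while other Wnt signals act on cell shape and polarity without beta-catenin. In the gonad, signalling through beta-catenin is known to favour ovarian development and to be held low in the differentiating testis. Secreted frizzled-related proteins, Wif1 and Dickkopf proteins such as Dkk1 can limit such signalling outside the cell.

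Gene expression was measured with oligonucleotide arrays on total RNA of E13.5 gonads, 1 array per sample, with 3 control and 3 Dmrt1 null testes labelled as biological replicates. The control titles say wild type, whereas their descriptions, their genotype entries and the series design give Dmrt1 heterozygotes. For the nulls, titles, descriptions and design give Dmrt1 -/-, whereas the genotype entry is Dmrt(flox/flox), with no Cre named. All 6 were outcrossed to 129S6/SvEvTac, so the controls as described carry 1 mutant allele on the same background. Dmrt1 encodes a DM domain transcription factor of Sertoli cells and germ cells.

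The probe set of Dmrt1 gave intensities of 696 to 1030 in the 3 controls and of 23.8 to 48.4 in the 3 nulls. Array medians lay between 14.6 and 14.8, and 22082 of 45101 probe sets passed the filter of a mean log2 intensity of at least 4. Testis cell types were present by their markers, with 8 of 8 Sertoli genes and 7 of 7 measured germ cell genes above the filter. Of 7 granulosa and ovary markers, 5 were above it as well. Lgr5 and the granulosa factor Foxl2 were below it, Foxl2 at 7.61 to 10.1. Marker levels differed between arrays within each group, those of germ cells included. Summed over the 7 germ cell genes, intensity was highest at control replicate 2 (14700), followed by null replicate 1 (12400). The rest lay at 10100 to 11100. The summed intensity of 8 endothelial markers reached 1180 in control replicate 2 and 1710 in null replicate 1, and 2980 to 3310 elsewhere. The summed intensity of 4 fetal Leydig cell markers was 9430, 10300 and 13000 in control replicates 2 and 3 and null replicate 1, against 3200 to 4180 in the other 3. For Actb, the probe set at the 3' end was brighter than the one at the 5' end by a ratio of 2.75 in null replicate 3, which stood above the 1.91 to 2.15 of the remaining arrays. The part of these differences in the values below was not tested, and in whole testes fewer cells of a type and less RNA per cell cannot be told apart.

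No Wnt gene passed the test between null and control testes. Of the 48 genes, 35 passed the filter, and limma with Benjamini-Hochberg adjustment over all 22082 probe sets called 0 of them at an adjusted p of 0.05, with adjusted p of 0.773 to 0.994. Limma called 6 probe sets over the whole table, which is 0.0272% of those tested, all lower in the null. At an unadjusted limma p under 0.05 there were 2 members, 1 higher and 1 lower, which is 5.71% of the 35 against 6.04% of all probe sets. The values of the 3 controls and the 3 nulls did not overlap at 4 members, 2 higher and 2 lower in the null. That is 11.4% of the 35, against 12.8% of all probe sets, of which 6.73% were higher and 6.06% lower. These shares lie near the background of the table.

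Differences in either direction were about equally frequent, with 18 members higher and 17 lower in the null. The median difference of null minus control was 0.018 on the log2 scale, against 0.0077 over all probe sets. Of the 35 members, 23 had an absolute log2 difference of at most 0.2, and the range ran from -0.61 for Wnt7a to 0.66 for Fzd9. For 31 of the 35 the 95% confidence interval lay between -1 and 1 on the log2 scale, so a doubling or a halving lay outside it. The exceptions were Wnt7a, Fzd9, Sfrp5 and Dkk1, whose spread between arrays was larger. The difference was smaller than the standard deviation within the groups at 24 of 35 members, or 68.6%, against 65.6% of all probe sets.

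**Figure D1:**
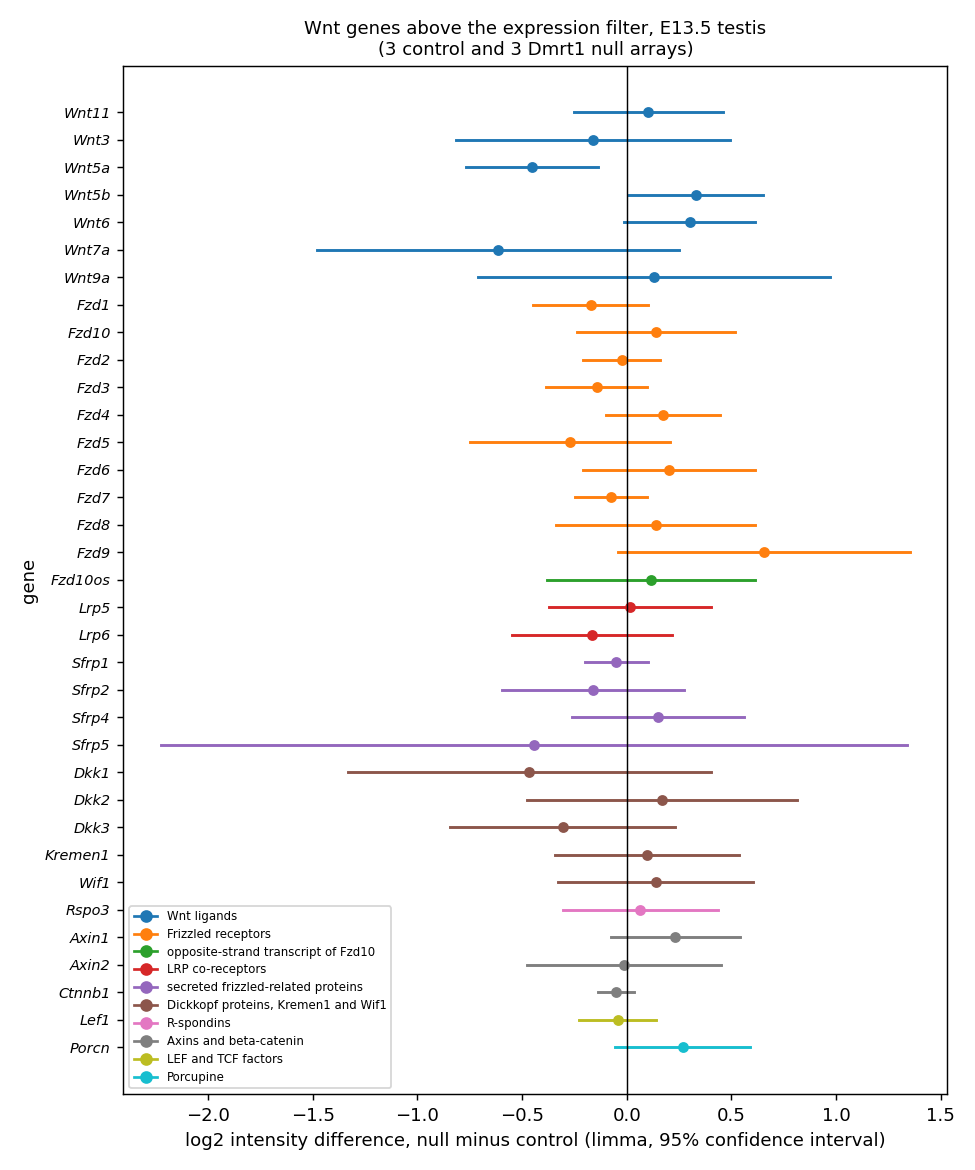
Log2 intensity difference of null minus control for the 35 Wnt genes above the expression filter, coloured by role, with the 95% confidence interval from limma (3 arrays per group). The points lie between -0.61 and 0.66, the interval of Ctnnb1 is the narrowest, and that of Sfrp5 reaches from -2.23 to 1.34.

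Among the ligands, 7 of 17 genes passed the filter, namely Wnt3, Wnt5a, Wnt5b, Wnt6, Wnt7a, Wnt9a and Wnt11. The other 10, Wnt1, Wnt2, Wnt2b, Wnt3a, Wnt7b, Wnt8a, Wnt8b, Wnt10a, Wnt10b and Wnt16, had intensities of 2.94 to 9.43 on every array, below the array medians, and gave no usable comparison. The ligands with the smallest p were Wnt5a, lower in the null, and Wnt5b and Wnt6, higher in the null, none of them called.

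Wnt5a encodes a ligand best known for signalling without beta-catenin during tissue outgrowth. Its brightest probe set read 1940, 2210 and 1960 across the controls and 1550, 1750 and 1210 across the nulls, always in the order of replicates 1, 2 and 3. All nulls lay below all controls, with null replicate 3 the lowest. Wnt5a was 1.37-fold lower in the null, with a log2 difference of -0.45 ± 0.14 (standard error, n = 3 per group), a 95% confidence interval of -0.77 to -0.14 and a limma adjusted p of 0.773. Wnt5a had 4 probe sets above the filter, and each gave a lower mean in the null, with log2 differences of -0.26 to -0.49. The groups did not overlap at 3 of these 4. The most even of them gave 1130, 1190 and 1210 in the controls and 979, 1010 and 955 in the nulls. At the probe set where the groups overlapped, control replicate 1 at 1640 lay below null replicate 1 at 1790. Markers of interstitial and peritubular cells, a cell type that can make Wnt5a, had a median difference of -0.10 over 7 genes, with summed intensities of 26200 to 27300 in the controls and 24700 to 25400 in the nulls. That median was -0.02 without null replicate 1. Their part in the Wnt5a difference was not tested. Probe sets of 1 gene read the same RNA samples and are not replicates of the comparison. Without null replicate 3, which has the high Actb ratio, the difference of Wnt5a was -0.30.

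Wnt5b, the closest relative of Wnt5a, lay on the other side of 0. Its brightest probe set gave intensities of 368, 356 and 391 in the controls and of 524, 393 and 496 in the nulls. The groups did not overlap, but null replicate 2 at 393 lay beside the highest control at 391. The log2 difference of Wnt5b was 0.33 ± 0.14 (standard error, n = 3 per group), a 1.26-fold higher level with a 95% confidence interval of 0.012 to 0.65 on the log2 scale and a limma adjusted p of 0.773. The other Wnt5b probe set had a difference of 0.36, with null replicate 2 at 204 among controls of 167 to 217.

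Wnt6, a ligand made by many embryonic epithelia, also had a higher mean in the null, but its groups overlapped. Its brightest probe set gave 944, 887 and 844 in the controls and 1180, 896 and 1250 in the nulls, so that null replicates 1 and 3 were high and null replicate 2 lay among the controls. The log2 difference of Wnt6 was 0.30 ± 0.14 (standard error, n = 3 per group) with a limma adjusted p of 0.773. The other Wnt6 probe set gave 133, 129 and 121 in the controls and 163, 153 and 196 in the nulls, without overlap, and a difference of 0.41. The brightest probe sets of Wnt5b and Wnt6, like the only one of Wnt3, are of the x type, which can also bind related transcripts.

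**Figure D2:**
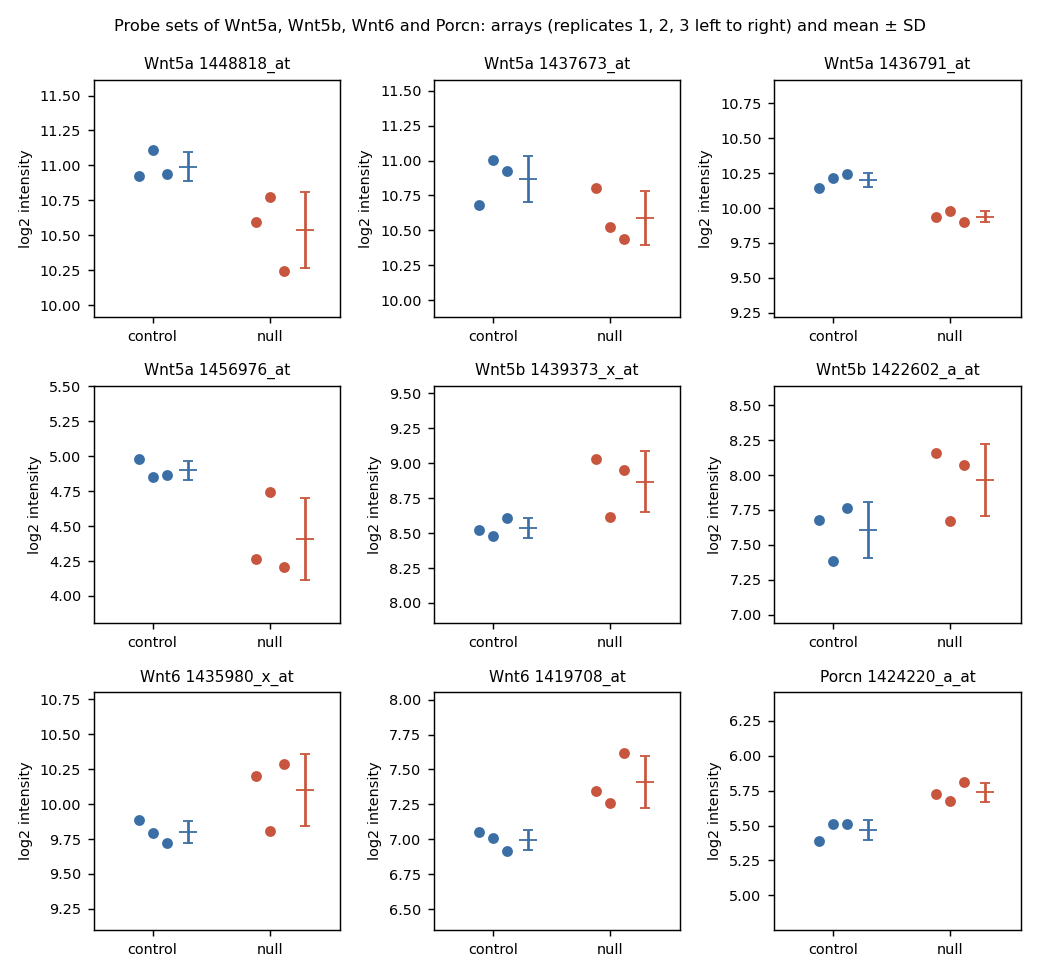
Log2 intensity in each array (points, replicates 1, 2 and 3 from left to right) with mean ± SD (n = 3) for the 4 probe sets of Wnt5a, 2 of Wnt5b, 2 of Wnt6 and 1 of Porcn. Every panel spans the same log2 range. The null mean of Wnt5a is the lower one in all 4 panels, with overlap in 1 of them, and null replicate 2 is the lowest null for Wnt5b, Wnt6 and Porcn.

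RefSeq promoter windows, 250 bases before a transcript start to 50 after it, were at hand for 28 of the 48 genes, 35 windows in all (GRCm38.p6). They were searched on both strands for CTTTGAT, 1 form of the core that LEF and TCF factors bind. Other forms of that core were not searched. They were also searched for ACANTGT, the core of the DMRT1 motif, which reads the same on both strands. The first was present in 2 of the 35 windows, or 5.71%, against 3.73% of all 32851 windows, and the second in 3, or 8.57%, against 7.54%. These shares are not like for like. The median GC content was 67.3% in the windows of the members and 52.7% in all windows, and some windows of 1 gene overlap. The windows with CTTTGAT belong to Wnt5b and Wnt11, and those with ACANTGT to Wnt5b, Wnt8b and Wnt16. Wnt5b is shown because its 3 windows hold 1 match to each motif and its groups did not overlap. The matches are in capitals. The first window is on the minus strand at chr6:119449337-119449636, and the second on the minus strand at chr6:119467162-119467461.
Wnt5b first window: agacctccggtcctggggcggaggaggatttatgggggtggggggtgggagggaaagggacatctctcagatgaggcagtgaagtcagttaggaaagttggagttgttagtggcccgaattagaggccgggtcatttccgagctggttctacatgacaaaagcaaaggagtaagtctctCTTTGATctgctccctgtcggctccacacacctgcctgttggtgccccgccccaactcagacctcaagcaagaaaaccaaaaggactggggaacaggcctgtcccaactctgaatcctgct
Wnt5b second window: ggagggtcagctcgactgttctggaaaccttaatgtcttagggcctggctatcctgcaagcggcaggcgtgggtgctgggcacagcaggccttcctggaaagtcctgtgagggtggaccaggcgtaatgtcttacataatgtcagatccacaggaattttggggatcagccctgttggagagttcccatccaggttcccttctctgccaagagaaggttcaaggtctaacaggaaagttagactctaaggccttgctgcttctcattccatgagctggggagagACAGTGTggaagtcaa
A match is a description of letters, not evidence of binding, and no window of Wnt5a or Porcn was used here.

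The remaining ligands had overlapping groups. For Wnt7a the difference was about as large as the standard deviation within the groups, 0.61 on the log2 scale. Wnt7a, a ligand needed for development of the female duct, gave intensities of 131, 181 and 82.3 in the controls and of 77.0, 131 and 53.9 in the nulls. The groups overlapped, and the highest array was 3.36-fold above the lowest. Its log2 difference of -0.61 ± 0.38 (standard error, n = 3 per group) had a limma adjusted p of 0.778, and the difference was -0.96 without null replicate 2 and -0.32 without null replicate 3. Markers of mesonephros and duct had lower means in the null at 6 of 6 genes, with a median difference of -0.15 and summed intensities of 2890 to 3670 in the controls and 3000 to 3270 in the nulls, and their part in the Wnt7a values was not tested. Without control replicate 2 that median was -0.03, with 4 of 6 lower. Wnt11 had a difference of 0.10, Wnt9a one of 0.13 and Wnt3 one of -0.16, each with overlapping groups.

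Porcn, the acyltransferase that prepares Wnt proteins for secretion, had a small spread. Its probe set gave 41.9, 45.5 and 45.6 in the controls and 52.9, 51.0 and 56.2 in the nulls. All nulls lay above all controls. The log2 difference of Porcn was 0.27 ± 0.14 (standard error, n = 3 per group), a 1.20-fold higher level with a limma adjusted p of 0.774, with 0.23 to 0.30 after dropping any 1 array. Wls, which carries acylated Wnt proteins to the cell surface, had a difference of 0.014.

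All 10 Frizzled receptors passed the filter, 5 with a higher and 5 with a lower mean in the null, and their median difference was 0.057. Fzd3 was the member whose groups did not overlap, at 636, 610 and 606 in the controls and 511, 582 and 587 in the nulls. Its log2 difference was -0.14 ± 0.10 (standard error, n = 3 per group, limma adjusted p = 0.804), and 1 of its 6 probe sets had a difference of the other sign, 0.042. The groups overlapped at every Fzd3 probe set but the brightest. Fzd9 had the highest mean difference of all members, 0.66 ± 0.30 (standard error, n = 3 per group, limma adjusted p = 0.773). Its intensities were 64.8, 34.1 and 37.1 in the controls and 57.4, 58.1 and 96.4 in the nulls. Control replicate 1 lay above null replicates 1 and 2, so the groups overlapped, and without null replicate 3 the difference of Fzd9 was 0.41. Fzd9 has 1 probe set.

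Fzd1 gave 1330, 1270 and 1600 in the controls and 1110, 1360 and 1250 in the nulls, with a difference of -0.17 ± 0.12 (standard error, n = 3 per group). Fzd4, the receptor known from blood vessel growth in the retina, gave 425, 417 and 483 in the controls and 455, 521 and 519 in the nulls, a difference of 0.17 ± 0.12 (standard error, n = 3 per group). Both overlapped between the groups. Fzd2 and Fzd7 were measured most closely, with differences of -0.02 and -0.07 and 95% confidence intervals of -0.21 to 0.16 and -0.25 to 0.10. Fzd5, Fzd6, Fzd8 and Fzd10 had differences of -0.27, 0.20, 0.14 and 0.14. The 3 probe sets of Fzd2 and the 2 of Fzd8 gave differences of both signs. The opposite-strand transcript Fzd10os gave 24.4, 23.5 and 28.1 in the controls and 33.2, 30.4 and 20.3 in the nulls, so null replicate 3 was the lowest array and the other nulls the highest.

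The co-receptors overlapped between the groups too. Lrp6, with Lrp5 the signalling partner of Frizzled, gave 2290, 1640 and 2060 in the controls and 1410, 1980 and 1960 in the nulls. Control replicate 2 and null replicate 1, the arrays with the lowest endothelial levels, were the low arrays of their groups. The difference of Lrp6 was -0.17 ± 0.17 (standard error, n = 3 per group, limma adjusted p = 0.847), and it was -0.0057 without null replicate 1. Lrp5 gave 102, 86.1 and 118 in the controls and 91.4, 105 and 112 in the nulls, a difference of 0.02 ± 0.17.

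All 4 secreted frizzled-related proteins, which bind Wnt ligands outside the cell, passed the filter. Sfrp1 varied little, with 2650, 2450 and 2750 in the controls and 2500, 2550 and 2530 in the nulls, and its log2 difference was -0.05 ± 0.07 (standard error, n = 3 per group, limma adjusted p = 0.889). Its 5 probe sets were all lower in the null, by -0.0099 to -0.31, and at 1 of them the groups did not overlap, with 1110, 954 and 1090 in the controls and 868, 905 and 767 in the nulls. Sfrp2 gave 1550, 1770 and 2530 in the controls and 1420, 1860 and 1880 in the nulls, so that the difference of -0.16 ± 0.19 turned to 0.043 without control replicate 3. Sfrp4 lay near the array medians, at 17.9 to 25.2, with a difference of 0.15.

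Sfrp5 stood out by its spread rather than by a difference between the groups. It gave 20.3, 105 and 40.9 in the controls and 98.0, 23.7 and 14.9 in the nulls. Control replicate 2 and null replicate 1 were high, and the highest array was 7.05-fold above the lowest. The log2 difference of -0.44 ± 0.77 (standard error, n = 3 per group, limma adjusted p = 0.914) was -1.24 without null replicate 1. It turned to 0.18 when control replicate 2 was dropped, and to 0.12 when null replicate 3 was. The other Sfrp5 probe set, below the filter, also had its highest values in these arrays, 17.7 and 17.2 against 9.48 to 14.6.

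Dkk1, a secreted inhibitor that binds the LRP co-receptors, was also highest in control replicate 2 and null replicate 1. It gave 382, 907 and 552 in the controls and 683, 347 and 306 in the nulls, with control replicate 3 next and null replicate 3 lowest, as for Sfrp5. Its log2 difference was -0.47 ± 0.38 (standard error, n = 3 per group, limma adjusted p = 0.817), with -0.82 to -0.14 after dropping any 1 array. The second Dkk1 probe set gave 28.8, 82.5 and 48.9 in the controls and 92.9, 22.4 and 31.7 in the nulls, again highest in control replicate 2 and null replicate 1. The ligands Wnt9a and Wnt3 were also highest there, Wnt9a at 248 and 291 against 107 to 179 elsewhere and Wnt3 at 55.8 and 51.1 against 29.0 to 39.9.

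In all, 6 of the 35 members had their highest control value in replicate 2 and their highest null value in replicate 1, namely Dkk1, Sfrp4, Sfrp5, Wif1, Wnt3 and Wnt9a. That is 17.1%, against 23.1% of all probe sets, so this arrangement was no more frequent among the Wnt genes than in the table. A within-group standard deviation of at least 0.4 on the log2 scale was found at 7 of 35 members, or 20%, and at 9.86% of all probe sets. Of these 7 members, Wnt7a, Fzd9 and Dkk2 did not show the arrangement. Endothelial and erythroid levels were lowest in control replicate 2, and fetal Leydig levels were above the mean of the 6 arrays in control replicates 2 and 3 and null replicate 1. The median deviation of the Leydig markers was 0.76, 0.78 and 1.26 in those arrays and between -1.40 and -0.65 in the other 3. That of the germ cell markers was 0.58, 0.0036 and 0.09 in the same arrays and between -0.48 and -0.19 in the other 3. The median deviation of mesonephros and duct markers was highest in control replicate 2, at 0.34, and was 0.09 in both null replicate 1 and control replicate 1. Their summed intensity ranked otherwise, with 3670 in control replicate 1 and 3580 in control replicate 2. It was 3270 in null replicate 2 and 3120 in null replicate 1. In control replicate 3, Sfrp5 and Dkk1 lay below control replicate 2 and null replicate 1 and above the other 3 arrays, and their relation to the marker lists was not tested.

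**Figure D3:**
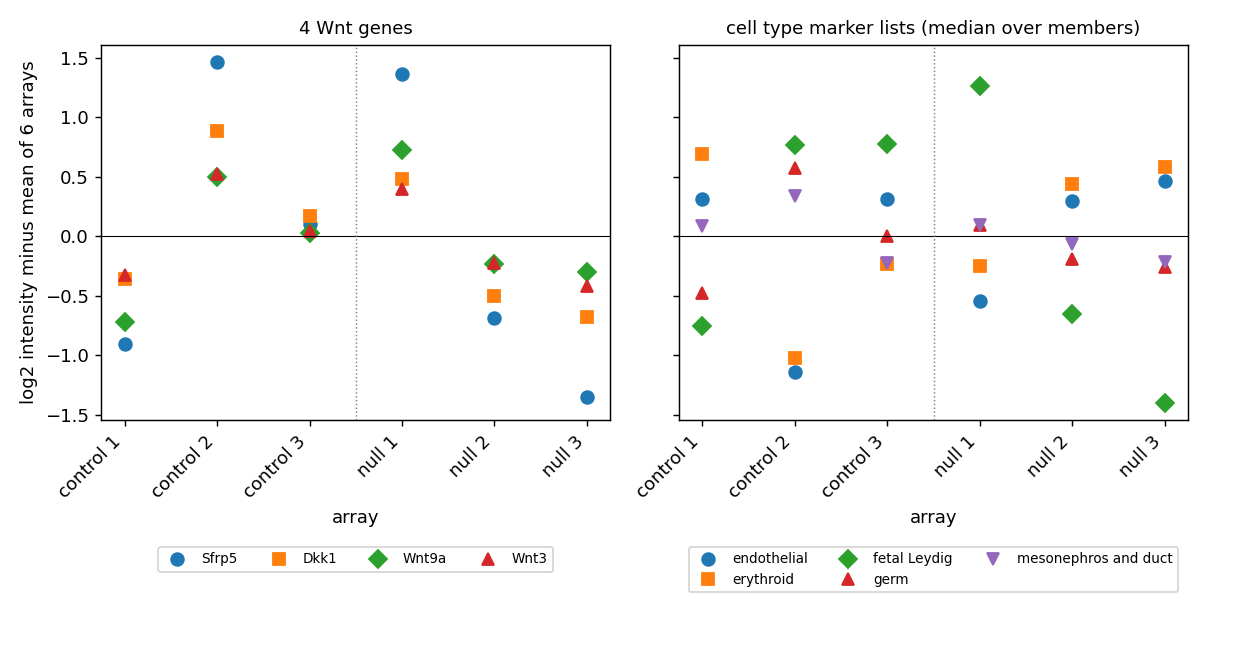
Deviation of the log2 intensity from the 6-array mean for Sfrp5, Dkk1, Wnt9a and Wnt3 (left) and the median of the same quantity over cell type marker lists (right), 1 point per array. Of the 7 members with a within-group standard deviation of at least 0.4, the 4 shown are those highest in control replicate 2 and null replicate 1. Wnt7a, Fzd9 and Dkk2, which lack this arrangement, are not shown. In these 2 arrays the endothelial markers are lowest and the germ cell markers highest. The mesonephros and duct markers are highest in control replicate 2, with null replicate 1 and control replicate 1 nearly level. Wnt9a and Wnt3 were added after their values were seen.

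The promoter windows of the most variable secreted inhibitors are given for reference, and neither CTTTGAT nor ACANTGT was found in them. The Dkk1 window holds CTTTGAA and, on the other strand, CTTTGAC, which differ from CTTTGAT in the last base. Neither was part of the search, so the search does not show that the window lacks a LEF and TCF core. The window of Sfrp5 is on the minus strand at chr19:42202203-42202502, and that of Dkk1 on the minus strand at chr19:30549447-30549746 (RefSeq, GRCm38.p6).
Sfrp5 window: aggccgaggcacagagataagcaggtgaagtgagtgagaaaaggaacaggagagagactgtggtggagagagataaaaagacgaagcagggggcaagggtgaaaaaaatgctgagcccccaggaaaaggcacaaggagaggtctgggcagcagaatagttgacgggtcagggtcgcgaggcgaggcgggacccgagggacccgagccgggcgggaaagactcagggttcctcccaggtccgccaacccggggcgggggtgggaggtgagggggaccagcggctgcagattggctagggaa
Dkk1 window: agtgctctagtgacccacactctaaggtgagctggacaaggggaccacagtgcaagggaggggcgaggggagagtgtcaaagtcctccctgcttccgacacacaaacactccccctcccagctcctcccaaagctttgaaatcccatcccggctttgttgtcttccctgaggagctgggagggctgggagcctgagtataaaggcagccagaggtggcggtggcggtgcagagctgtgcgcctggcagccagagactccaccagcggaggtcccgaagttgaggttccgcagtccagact

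Among the other Dickkopf genes, Wif1 and Kremen1, Dkk3 gave 198, 189 and 251 in the controls and 242, 138 and 149 in the nulls. Null replicate 1 lay with the controls, and the log2 difference was -0.31 ± 0.23 (standard error, n = 3 per group, limma adjusted p = 0.811). It was -0.56 when null replicate 1 was dropped and -0.15 when null replicate 2 was. Wif1, which binds Wnt ligands directly, lay near the array medians at 19.0 to 30.9 with a difference of 0.14. Dkk2 and the Dickkopf receptor Kremen1 had differences of 0.17 and 0.10. Dkk4 was below the filter, at 6.34 to 6.78.

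R-spondins strengthen Wnt signals by protecting Frizzled receptors from removal. Among the 3 measured here, Rspo3 alone passed the filter, with 224, 234 and 258 in the controls and 283, 203 and 270 in the nulls. Its groups overlapped, and the difference was 0.07 ± 0.16 (standard error, n = 3 per group, limma adjusted p = 0.937). Rspo2 reached 13.4 in control replicate 2 and was at 5.47 to 9.02 on the other arrays, and Rspo4 was at 5.55 to 8.25.

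Beta-catenin and Lef1 varied little between the arrays, and Axin2 varied more. Ctnnb1, which encodes beta-catenin, gave 7770, 7600 and 7720 in the controls and 7240, 7640 and 7430 in the nulls. Its log2 difference of -0.05 ± 0.04 (standard error, n = 3 per group, limma adjusted p = 0.809) had the narrowest interval of the 35 members, from -0.14 to 0.04. Its other probe sets were lower as well, by -0.14 and -0.33, and at the first of these the groups did not overlap. Lef1, a nuclear partner of beta-catenin, gave 2630, 2670 and 2610 in the controls and 2300, 2770 and 2630 in the nulls, a difference of -0.04 ± 0.08 (standard error, n = 3 per group).

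Axin2, a scaffold of the destruction complex that is itself a common target of beta-catenin signalling, gave 595, 468 and 491 in the controls and 461, 693 and 418 in the nulls. Null replicate 2 was the highest array and null replicate 3 the lowest, so the nulls enclosed the controls. The log2 difference of Axin2 was -0.01 ± 0.20 (standard error, n = 3 per group, limma adjusted p = 0.994) with a 95% confidence interval of -0.47 to 0.45, and it was -0.23 without null replicate 2 and 0.13 without null replicate 3. Its relative Axin1 gave 344, 288 and 300 in the controls and 367, 327 and 402 in the nulls, a difference of 0.23 ± 0.13 (standard error, n = 3 per group, limma adjusted p = 0.776), and both Axin1 probe sets had higher means in the null.

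**Figure D4:**
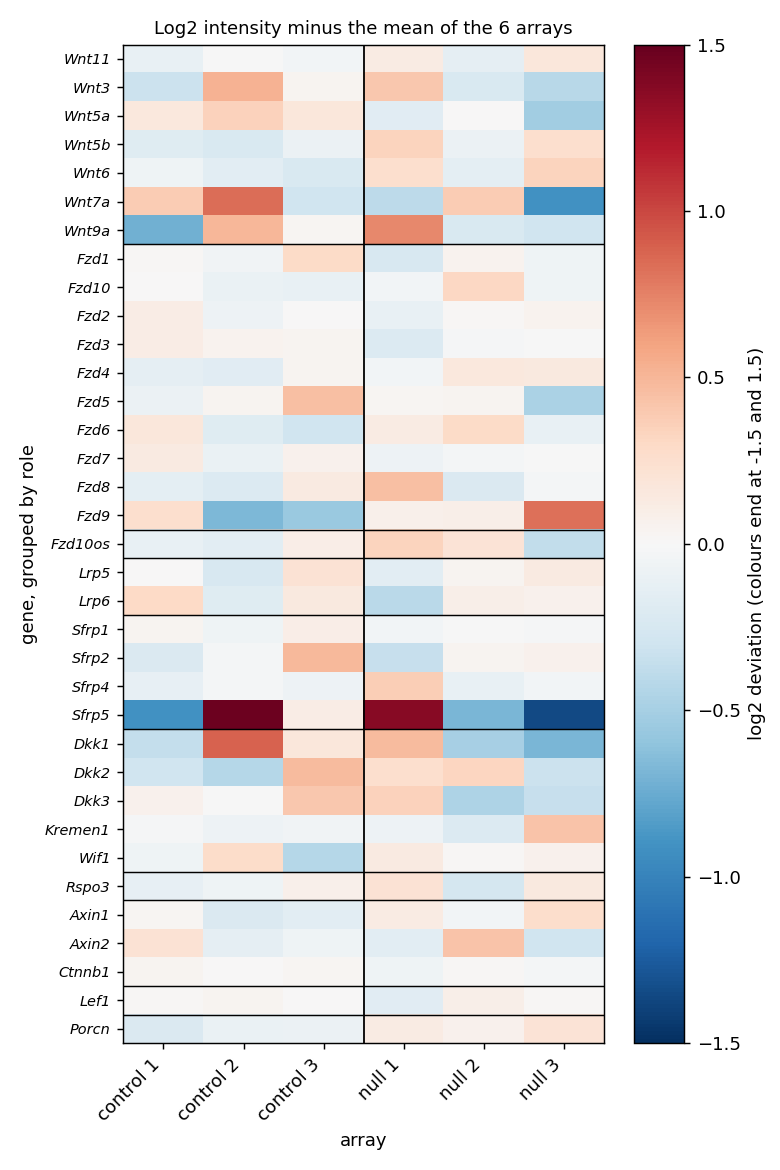
Deviation of the log2 intensity from the 6-array mean for the 35 Wnt genes above the filter (rows, grouped by role) in each array (columns). Sfrp5 has the strongest colours, in control replicate 2 and null replicates 1 and 3, while Ctnnb1, Sfrp1 and Fzd2 are pale throughout.

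Probe sets of 1 gene mostly pointed the same way. Of 13 members with several probe sets above the filter, 10 had all of them on 1 side of 0, the exceptions being Fzd2, Fzd3 and Fzd8. Over all 59 probe sets of the members that passed the filter, the groups did not overlap at 9, or 15.3%, against 12.8% of all probe sets, and limma called 0. Of these 9, 3 belong to Wnt5a.

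No other gene of the pathway passed the test either. Of 74 listed genes, 73 were on the array and 66 passed the filter, with 26 higher, 40 lower and 0 called by limma, where 5 had an unadjusted p under 0.05 (6.04% of all probe sets did). Over all probe sets 11461 were higher and 10621 lower, so this list held more lower members than the table and than the Wnt genes above, a split that was not tested. Their median difference was -0.04, and the groups did not overlap at 8, or 12.1%, against 12.8% of all probe sets. The smallest p belonged to Ptk7, a receptor-like protein of planar polarity, at -0.45 ± 0.13, to the corepressors Tle2 at 0.53 ± 0.17 and Tle4 at -0.21 ± 0.08, to Fst, the activin antagonist follistatin, at -0.58 ± 0.24, and to the planar polarity protein Vangl2 at -0.26 ± 0.11 (log2 difference ± standard error, n = 3 per group, limma adjusted p = 0.773 for each). Groups did not overlap for Ptk7, Tle2, Tle4 and Vangl2. The destruction complex and Dishevelled genes had 11 of 14 lower, with a median of -0.05, and the feedback and target genes had 7 higher and 6 lower, with a median of 0.01 and a range of -0.74 to 0.61. Apart from Dmrt1, the table's called genes, Cst9, Tox2, H2-Aa, Islr2 and AU015836, are on neither list.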

How the data were processed

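Each array has a column of deposited intensities, on the linear scale. Per the submitters' processing notes, the authors used GCRMA, which corrects background, normalizes between arrays and summarises probe sets. Its version and the genome build are not given in the sources used here. Folds of dim genes depend on that correction, and no detection call entered the filter.

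The log2 of each intensity was used as it stood. A mean log2 of at least 4 over the arrays kept 22082 probe sets for limma 3.58.1 (R 4.3.3). The model held the group alone, eBayes used a trend on intensity, and p-values were Benjamini-Hochberg adjusted across every kept probe set. Tests were two-sided and a call needed an adjusted p under 0.05. A difference is the null mean less the control mean, and intervals are 95% limma intervals. The number of arrays limits the precision, and nothing in the labels says more of the replicates than that they are biological. Marker lists of cell types (Sertoli, germ, fetal Leydig, endothelial, erythroid, interstitial and peritubular, mesonephros and duct, granulosa and ovary, macrophage) were summed per array.

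Members, lists and tests were chosen with earlier results of these data known. Genes given with all 6 values were set by a rule: called members, from each role the up to 3 members of smallest p, the 5 largest differences, the members whose groups did not overlap, the 3 with the largest spread, and Ctnnb1, Axin2, Lef1 and Lrp6. Of the other pathway genes, the rule takes the called ones and the 5 of smallest p. Wnt9a, Wnt3 and Wls were added after their values were seen. Gene names came from GEO's platform annotation, which gives 34958 probe sets 1 symbol, 932 several and 9211 none.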

Additional observations from a re-analysis of the deposited data

How the results depend on the processing

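With 3 arrays per group, small differences cannot be resolved: the median standard error of the 35 Wnt genes was 0.17 on the log2 scale. Limma called 0 of them in each of 19 alternatives (other filters, normalizations, added constants, variance models, probe set choices and thresholds, and arrays left out), with a lowest adjusted p of 0.458 under array weights. It also called 0 of the other pathway genes in each. The median difference of the Wnt genes, 0.018, was -0.043 with a filter at a mean log2 of 6, -0.044 with array weights and -0.038 without control replicate 2 and null replicate 1 together, an alternative added after seeing the data. Dropping any 1 array gave -0.0057 to 0.053. Of 24 genes chosen by the rule, 15 kept their sign throughout, Wnt5a, Wnt5b, Wnt6, Wnt7a, Porcn, Fzd9 and Dkk1 among them, and Axin2, Fzd10os, Lef1, Lrp5, Rspo3, Sfrp2, Sfrp4, Sfrp5 and Wif1 did not. The difference of Wnt5b was 0.22 without both arrays. In the whole table, the 6 calls became 1 without the intensity trend, 0 with the replicate block, and 0 to 4 with single arrays left out. The causes were not tested. Deviations of same-numbered arrays correlated at -0.59, -0.34 and 0.14, and those of arrays with unlike numbers at -0.40 to 0.58. With the cell type differences between arrays, such correlations cannot show whether samples were paired. The main model did not pair arrays.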

Other observations

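Macrophage markers, a list not described above, had lower means in the null at 7 of 7 genes, with a median log2 difference of -0.31 that lay between -0.44 and -0.26 with any 1 array left out. Of 7 granulosa and ovary markers, 5 passed the filter, 3 higher and 2 lower, with a median of 0.27 that was 0.06 without null replicate 1 and 0.12 without null replicate 3. Foxl2 and Lgr5 did not pass. Sertoli cell markers had 5 higher and 3 lower, with a median of 0.03. That median turned to -0.06 when control replicate 3 was dropped and to -0.02 when null replicate 1 was. Summed over the 8 Sertoli genes, intensity was 15600 to 16800 in the controls and 12600 to 13400 in the nulls. The 1 called gene among them was Cst9, at -1.58. Groups did not overlap either for Aard, lower at -0.43, and Ptgds, higher at 0.01, neither of them called.

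The tallies of several other lists rested on 1 array, a check added after seeing the data. Erythroid markers had higher means at 6 of 6 genes, with a median of 0.35, but at 2 of 6 without control replicate 2, with a median of -0.07. Endothelial markers had 7 higher and 1 lower, with a median of 0.18, but 1 higher and 7 lower without control replicate 2, with a median of -0.28. Germ cell markers had 2 higher and 5 lower, with a median of -0.22, but 5 higher and 2 lower without control replicate 2, with a median of 0.09. Fetal Leydig cell markers had lower means at 4 of 4 genes, with a median of -0.53, but at 2 of 4 without null replicate 3, with a median of -0.0016.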
